A study of Mus musculus with 6 samples.

Results

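The genes described here are 34 mouse genes of cholesterol synthesis and sterol transport, among 54232 genes counted in each library. They were chosen by name for their function, with earlier results of these libraries known, and every symbol matched 1 Ensembl mouse ID of the count files. They comprise 8 genes of the mevalonate steps, 11 of the squalene and sterol steps, 5 of the SREBP system, 5 of intracellular transport, esterification and oxysterol formation, 3 LXR-type efflux and degradation genes (Abca1, Abcg1 and Mylip) and 2 LXR receptor genes. The study sequenced RNA from wildtype CD1 mouse cortical neurons on 3 kinds of substrate, with 2 libraries each: control (library name PDL), PA (a peptide amphiphile scaffold named IKVAV) and PA + PS2 (the same amphiphile plus PEDOT-S, a conductive polymer; library name IKVAV plus PEDOT-S OH). The treatment label reads peptide amphiphile in all 6 libraries, control included, so the groups were read from the titles. The sources used here give neither age nor time in culture, and nothing in the labels says whether repeats 1 and 2 came from separate cultures, so each p-value measures the spread between these libraries, which may be technical.

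Cholesterol is built from acetyl-CoA through the mevalonate pathway to squalene, which is closed into a ring and trimmed to cholesterol. The SREBP2 transcription factor (Srebf2), held in the endoplasmic reticulum by Scap and the Insig proteins when sterol is plentiful, switches most of these genes on when sterol is scarce. LXR receptors (Nr1h2 and Nr1h3) do the reverse: oxysterols activate them and they raise efflux transporters such as Abca1 and Abcg1, and also Srebf1. The brain makes its own cholesterol, since lipoproteins of the blood do not cross the blood-brain barrier; developing neurons synthesise it, astrocytes later supply much of it, and neurons dispose of the excess as an oxysterol made by Cyp46a1.

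Library totals ran from 30714311 to 33923681 counts, and 17299 genes passed the filter on low counts, all 34 members included. Values are in CPM, counts per library size scaled to 1e+06, with TMM factors; the pair of values for each group is repeat 1 and then repeat 2, with 2 libraries in each group and SDs over those 2. Log2 differences and standard errors (±) come from edgeR's quasi-likelihood fit to all 6 libraries, with Benjamini-Hochberg adjustment over all 17299 genes and a threshold of 0.05. Summed neuron markers stood at 5168 to 5674 CPM, microglial markers at 2.81 to 5.21 CPM and endothelial markers at 3.77 to 7.78 CPM, with Cldn5 at 0 in 3 libraries. The libraries of a group differed by more than counting noise, with chi-square per degree of freedom of 14.6 to 21.1.

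By GENCODE M21 on GRCm38, the build the authors named mm10, Hmgcs1 (ENSMUSG00000093930) at chr13:119690379-119708260 lies on the plus strand, and Mvd (ENSMUSG00000006517) at chr8:122433601-122443422, Srebf1 (ENSMUSG00000020538) at chr11:60199089-60222581 and Abca1 (ENSMUSG00000015243) at chr4:53030787-53159895 on the minus strand. The promoter windows of the members with the smallest p-values between PA + PS2 and control that held a searched motif are shown with that of Hmgcs1, which was added after its match had been seen. Each is a stretch of 120 bases before an annotated start site, from RefSeq (GRCm38.p6), written 5′ to 3′ on the gene's own strand. Capitals mark matches to the CCAAT box (CCAAT, or ATTGG on the other strand), the E-box (CACGTG) and, in Hmgcs1, the sterol regulatory element (SRE) searched as TCACNCCAC.
Hmgcs1 (chr13:119690114-119690233, plus strand): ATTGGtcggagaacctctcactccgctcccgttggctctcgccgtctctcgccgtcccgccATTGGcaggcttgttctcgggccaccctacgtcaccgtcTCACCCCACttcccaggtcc
Mvd (chr8:122443423-122443542, minus strand): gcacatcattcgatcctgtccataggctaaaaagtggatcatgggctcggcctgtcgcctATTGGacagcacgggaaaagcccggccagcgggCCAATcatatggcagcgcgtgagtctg
Mvk (chr5:114444149-114444268, plus strand): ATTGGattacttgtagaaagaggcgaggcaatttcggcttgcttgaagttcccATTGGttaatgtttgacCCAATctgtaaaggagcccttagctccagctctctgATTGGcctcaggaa
Pmvk (chr3:89454405-89454524, plus strand): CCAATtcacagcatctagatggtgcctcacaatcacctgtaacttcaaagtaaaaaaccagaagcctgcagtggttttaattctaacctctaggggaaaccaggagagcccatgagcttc
Insig1 (chr5:28071243-28071362, plus strand): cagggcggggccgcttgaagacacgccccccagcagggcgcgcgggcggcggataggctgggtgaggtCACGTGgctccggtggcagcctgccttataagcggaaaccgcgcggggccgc
Srebf1 (chr11:60210472-60210591, minus strand): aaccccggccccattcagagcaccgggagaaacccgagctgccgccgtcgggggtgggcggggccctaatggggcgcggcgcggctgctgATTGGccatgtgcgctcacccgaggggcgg
Abca1 (chr4:53159923-53160042, minus strand): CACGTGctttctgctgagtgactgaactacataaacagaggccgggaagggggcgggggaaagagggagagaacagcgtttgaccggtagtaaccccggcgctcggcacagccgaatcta

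Of the 34 members, 28 had an entry in the promoter table, and 250 bases before each start site were searched on both strands. CCAAT was found in 23 of these 28 members and in 15 of the 16 synthesis genes among them, against 37.5% of 27018 genes. Hmgcs1 was the only member with the SRE letters, which 1.225% of all genes held. Its 250 bases also held 3 CCAAT matches, and 0.3923% of all genes had an SRE and at least 1 CCAAT match in these bases. A shorter form of the SRE, CACNCCA, was in 7 of the 28 members, against 17.41% of all genes. These were Acat2, Hmgcs1, Insig1, Insig2, Msmo1, Soat1 and Srebf2. The E-box, at 6.862% of all genes, was found in Abca1, Dhcr7, Hsd17b7, Insig1, Sc5d and Scap. The letters of an LXR element, searched only as GGTCANNNNGGTCA, were in 0.05182% of all genes and in 0 of the 28 members. An LXR element that departs from these exact letters would have been missed, in Abca1 as in the others. The SRE, the CCAAT box, the E-box and the LXR element share no letters in the windows printed. These matches describe letters in a window, and not where a factor binds.

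Per kilobase of exon, synthesis genes held most of the top of the range and efflux genes the bottom. Hmgcs1, which makes HMG-CoA, was highest at 345 CPM per kilobase in the mean of the 6 libraries. Next came Cyp51, the lanosterol demethylase, at 108, then Acat2, the cytosolic thiolase that opens the pathway, at 81.4, Srebf2 at 80.2 and Sqle, squalene epoxidase, at 79.5. Acat2, Srebf2 and Sqle lay close together, and Acat2 alone ran from 174 to 244 CPM over the libraries, so their order is not fixed by these data. At the low end stood Mylip, a ubiquitin ligase that degrades lipoprotein receptors, at 3.35 CPM per kilobase, Soat1, which esterifies cholesterol, at 1.95, and the efflux transporters Abca1 at 1.28 and Abcg1 at 1.01. Nr1h3, which encodes LXR-alpha, was lowest at 0.104, far below Nr1h2 (LXR-beta) at 8.77. Cyp46a1, the cholesterol hydroxylase of neurons, was at 12.5 CPM per kilobase. The exon length used joins all annotated exons of a gene, so genes with shorter transcripts read too low per kilobase. It was 4208 bases for Fdps, whose longest protein-coding transcript has 1382, but 10363 for Abca1, whose longest has 10262.

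**Figure D1:**
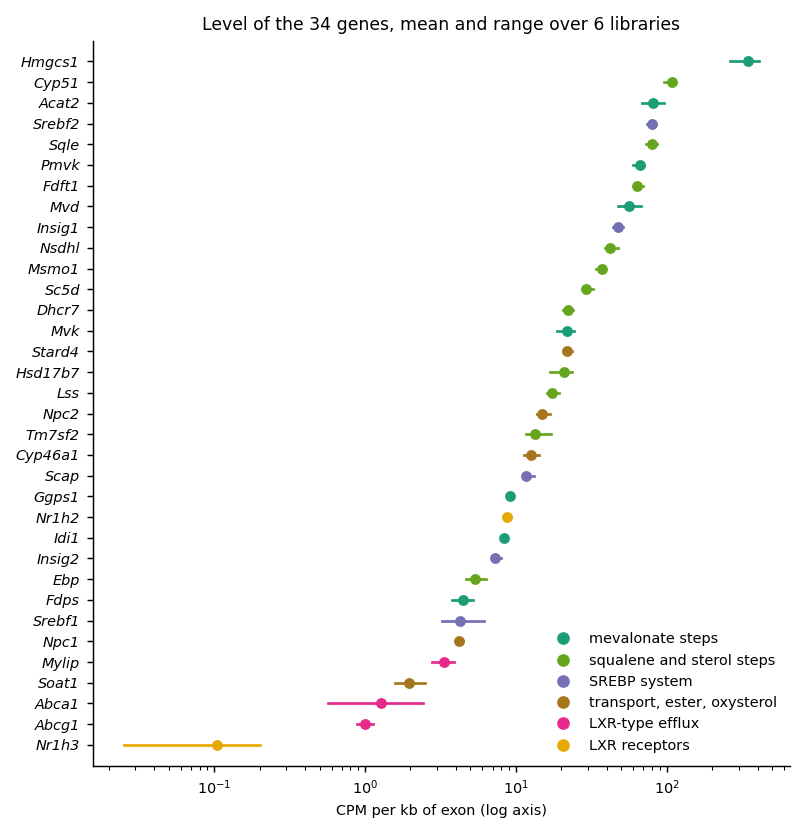
Level of each of the 34 genes in CPM per kilobase of exon on a log axis, ordered by the mean of the 6 libraries, with a point for that mean, a line for the range over the libraries and colours for the role of the gene. Hmgcs1 stands highest at 345 CPM per kilobase and Nr1h3 lowest at 0.104, with Abcg1 and Abca1 next above it.

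Some of these levels are uncertain because reads can fall on more than 1 gene. Copies with at least 95% identity over at least 200 bases covered 91.4% of the Fdps transcript (5 other genes), 65.6% of Acat2 (Acat3) and 33.8%, 22.6% and 21.3% of Fdft1, Idi1 and Ggps1. Exons of Srebf1 overlap Rai1 on the opposite strand by 109 bases, and Cyp51, Fdft1, Ggps1 and Npc1 overlap expressed protein-coding genes (Akap9, Ctsb, Arid4b and Rmc1) in the same way. Hmgcs1, Lss, Scap and Idi1 overlap antisense or unclassified genes that averaged at most 26.5 counts, and Tm7sf2 overlaps Vps51 on its own strand. The sources used here do not say how the counting treated strand or multiply mapped reads.

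The comparison of PA + PS2 with control asks what the conductive scaffold changed relative to the plain substrate. Most synthesis genes were slightly higher on PA + PS2 and the 3 efflux genes were lower, but 0 of 34 members passed edgeR's threshold, against 0% of all genes. At an unadjusted p under 0.05 stood 6 members in edgeR: Mvd, Mvk and Insig1 higher and Abca1, Pmvk and Srebf1 lower. That is 3 of 34 in each direction (8.82%), against 2.2% of all genes higher and 4.61% lower, or 6.81% in both directions. With the repeat number as a block, 121 genes passed in edgeR (0.699%) and again 0 of the members. DESeq2 called 1 member lower, Abca1, against 0.828% of the genes it tested, and the same gene with the block, against 1.87%.

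Of the mevalonate genes, Mvd and Mvk were higher on PA + PS2 and Pmvk was lower. Mvd, which decarboxylates mevalonate diphosphate, was at 94.5 and 96.1 CPM (control), 111 and 88.3 CPM (PA) and 126 and 115 CPM (PA + PS2). Both PA + PS2 libraries lay above the other 4. The log2 difference from control was 0.34 ± 0.11 (0.42 in repeat 1 and 0.26 in repeat 2; edgeR adjusted p = 0.628). Mvk, mevalonate kinase, was at 49.8 and 54.7 CPM (control), 64.7 and 54.4 CPM (PA) and 64.5 and 64.9 CPM (PA + PS2). The PA + PS2 libraries lay above control, while PA repeat 1 reached their level, and the log2 difference from control was 0.31 ± 0.11 (edgeR adjusted p = 0.644). Pmvk, which adds the next phosphate between Mvk and Mvd, was at 121 and 118 CPM (control), 116 and 119 CPM (PA) and 108 and 102 CPM (PA + PS2). The PA + PS2 libraries were the lowest of the 6, at -0.18 ± 0.07 log2 from control (edgeR adjusted p = 0.69). The other 5 mevalonate genes, Acat2, Hmgcs1, Idi1, Fdps and Ggps1, had log2 differences from -0.05 (Ggps1) to 0.23 (Fdps).

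Among the 11 squalene and sterol genes, 10 were above 0, as were 51.9% of all genes, and Hsd17b7, a sterol ketone reductase, was at -0.07. Sqle, the oxygen-dependent step that commits squalene to sterols, was at 403 and 438 CPM (control), 449.6 and 431 CPM (PA) and 448 and 475 CPM (PA + PS2). PA + PS2 lay above control in both repeats, at a log2 difference of 0.13 ± 0.08 (edgeR adjusted p = 0.855), and PA repeat 1 overlapped PA + PS2. Ebp, the sterol isomerase, had the highest difference of this group at 0.31 ± 0.17, from 10.7 and 11.3 CPM in control to 12.6 and 14.6 CPM in PA + PS2. In 6 of the 11 genes (Sqle, Fdft1, Nsdhl, Ebp, Sc5d and Dhcr7) both PA + PS2 libraries lay above both control libraries, as they did in 16.6% of all genes.

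In the SREBP system, Srebf2 and its partners were slightly higher on PA + PS2 and Srebf1 was lower. Srebf2 was at 529 and 583 CPM (control), 576 and 565 CPM (PA) and 595 and 610.3 CPM (PA + PS2). Its PA + PS2 libraries were the highest of the 6, by 0.12 ± 0.08 log2 over control (edgeR adjusted p = 0.89). Insig1, which retains SREBP in the endoplasmic reticulum and is itself an SREBP2 target, was at 136 and 139 CPM (control), 145 and 148 CPM (PA) and 159.7 and 149 CPM (PA + PS2). It was lowest in control and highest in PA + PS2 without overlap, with a log2 difference of 0.17 ± 0.07 between these groups (edgeR adjusted p = 0.729). Scap and Insig2 differed by 0.13 and 0.12 log2. Srebf1, the SREBP gene that leans to fatty acid synthesis, was at 23.5 and 26.96 CPM (control), 22.8 and 34.9 CPM (PA) and 18.7 and 18.1 CPM (PA + PS2). PA + PS2 was the lowest group, PA repeat 2 the highest library, and the log2 difference from control was -0.45 ± 0.19 (edgeR adjusted p = 0.728).

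Abca1, the transporter that loads cholesterol onto apolipoproteins, showed the widest spread of the members apart from the barely detected Nr1h3. It was at 12.1 and 18.3 CPM (control), 11.6 and 25.002 CPM (PA) and 6.89 and 5.91 CPM (PA + PS2). The PA + PS2 libraries were the lowest, while control and PA each held a low repeat 1 and a high repeat 2. PA + PS2 stood at 0.422 times control, a log2 difference of -1.25 ± 0.39 (-0.80 in repeat 1 and -1.62 in repeat 2; edgeR adjusted p = 0.631, and 0.161 with the repeat block). DESeq2 called it lower, with an adjusted p of 0.0221, or 0.00199 with the repeat block. That call was lost without control repeat 2, PA + PS2 repeat 1 or PA + PS2 repeat 2 (log2 -0.92, -1.36 and -1.14). It was kept without control repeat 1 (-1.52). Each of these fits leaves 1 library in a group, so a lost call does not show that it rested on that library. In edgeR with the repeat block, the difference ran from -0.68 without PA + PS2 repeat 2 to -1.76 without PA + PS2 repeat 1. Abcg1, a transporter that passes cholesterol to lipoprotein particles, was at 7.95 and 7.39 CPM (control), 7.01 and 8.30 CPM (PA) and 6.50 and 6.92 CPM (PA + PS2). Its log2 difference was -0.19 ± 0.19 (edgeR adjusted p = 0.962). Mylip was at 12.5 and 11.3 CPM (control), 10.3 and 10.9 CPM (PA) and 11.03 and 8.97 CPM (PA + PS2), and its difference was -0.25 ± 0.17 (edgeR adjusted p = 0.905). In all 3 efflux genes the PA + PS2 libraries lay below both control libraries, a pattern that 17.1% of all genes showed.

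Summed markers of some glial cells moved with Abca1, and those of others did not. Summed over 5 oligodendrocyte precursor markers (Pdgfra, Cspg4, Olig1, Olig2 and Sox10), the level was 33.4 and 80.5 CPM (control), 23.7 and 122 CPM (PA) and 7.91 and 6.30 CPM (PA + PS2). All 5 were lower on PA + PS2 than in control without overlap, as were 17.1% of all genes, and none was at 0 in any library. In edgeR with the repeat block 1 of them passed, against 0.699% of all genes. The order of the 6 libraries by this sum was the same as by Abca1 and by Srebf1. The sum of 8 astrocyte markers ran from 48.4 to 233 CPM, and that of 6 progenitor and cycling markers from 65.9 to 259.8 CPM; in both, PA + PS2 was lowest and PA repeat 2 highest. Summed markers of mature oligodendrocytes went the other way, from 37.9 to 49.9 CPM in the other 4 libraries to 68.6 and 99.96 CPM on PA + PS2. Microglial sums overlapped, at 3.34 and 3.99 CPM (control), 3.39 and 5.21 CPM (PA) and 2.81 and 4.13 CPM (PA + PS2). Summed over 7 fibroblast and mural markers, the level was 75.1 and 57.3 CPM (control), 84.9 and 43.98 CPM (PA) and 64.1 and 16.8 CPM (PA + PS2), lowest in PA + PS2 repeat 2. Their median log2 difference of PA + PS2 from control was -0.14 in repeat 1 and -1.41 in repeat 2. The part of these cells in the values of Abca1 and Srebf1 was not tested. In bulk RNA, fewer cells of a type and less RNA per cell cannot be told apart.

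**Figure D2:**
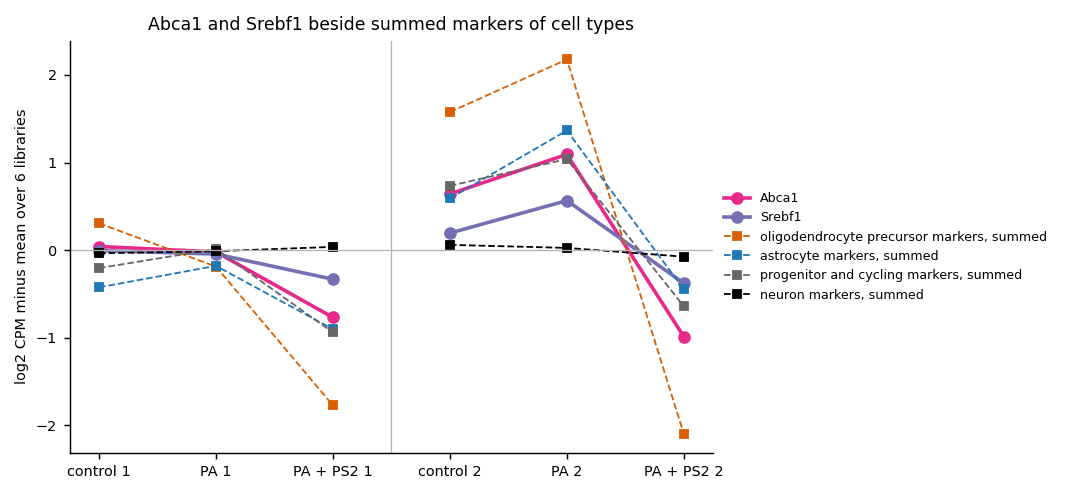
Log2 level of Abca1, Srebf1 and the summed oligodendrocyte precursor, astrocyte, progenitor and neuron markers in each library, each line centred on its own mean, with repeat 1 and repeat 2 drawn apart. Abca1, Srebf1 and the precursor sum place the 6 libraries in the same order, with PA + PS2 repeat 2 lowest and PA repeat 2 highest. Not drawn are the sums of mature oligodendrocyte markers, which were higher on PA + PS2, and of microglial, endothelial and fibroblast and mural markers.

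The transport genes Npc1 and Npc2, which export cholesterol from lysosomes, and Stard4, a cytosolic sterol carrier, had log2 differences of 0.11, 0.14 and 0.04. Soat1 had -0.26 ± 0.22, with opposite signs in the repeats. Cyp46a1 was at 41.9 and 40.9 CPM (control), 41.2 and 38.8 CPM (PA) and 46.99 and 37.4 CPM (PA + PS2). Its groups overlapped, and its log2 difference was 0.03 ± 0.12 (edgeR adjusted p = 0.999). Nr1h2 was at 31.2 and 29.4 CPM (control), 29.5 and 28.8 CPM (PA) and 27.8 and 29.8 CPM (PA + PS2), also with overlap (-0.07 ± 0.11 log2, edgeR adjusted p = 0.984). Nr1h3 was at 0.179 and 0.149 CPM (control), 0.388 and 0.505 CPM (PA) and 0.0638 and 0.292 CPM (PA + PS2), which is 2 to 16 counts a library, and no fold change is given at this depth.

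**Figure D3:**
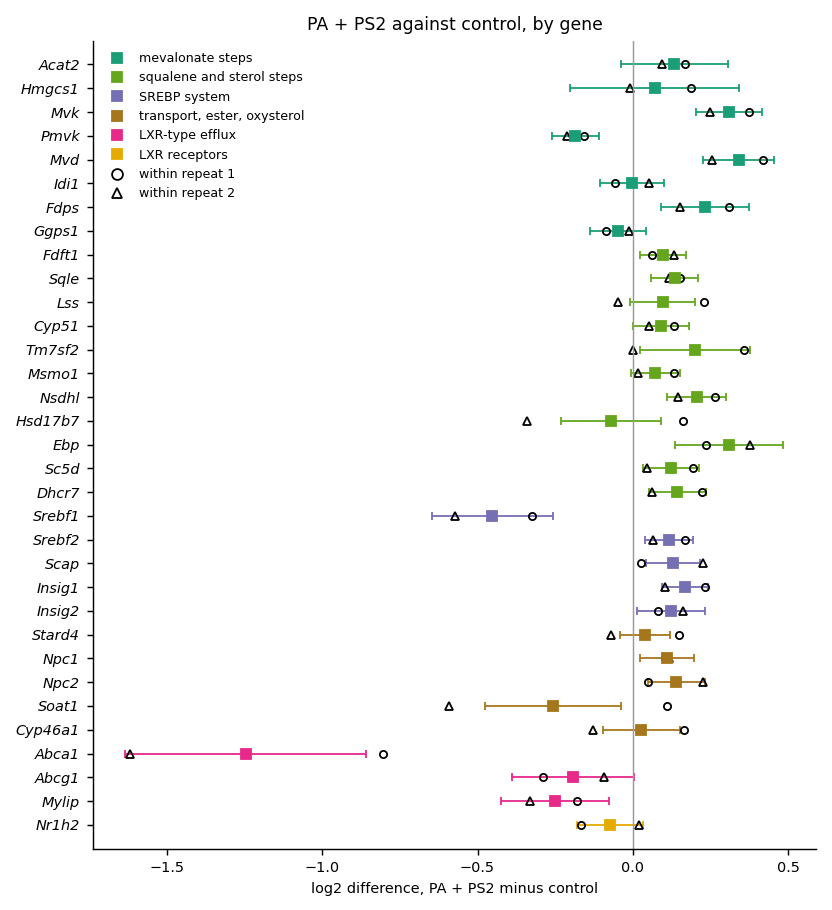
Log2 difference of PA + PS2 from control for the members other than Nr1h3, grouped and coloured by role, with the edgeR estimate (square) and its standard error (line) and the values within repeats 1 (circle) and 2 (triangle). Abca1 lies lowest at -1.25 and Mvd highest at 0.34.

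Read together, 15 of 34 members (44.1%) had both PA + PS2 libraries above both control libraries, against 16.6% of all genes, and 6 (17.6%) had both below, against 17.1%. In both repeats, 19 members (55.9%) were higher than the control of the same number, against 29.7% of all genes, and 6 (17.6%) were lower, against 28%. All members are read from the same 6 libraries, so these counts are a description and carry no test. Of the 19 synthesis genes, 15 were above 0 in the fit, as were 51.9% of all genes. Of the 19, 13 were higher in both repeats and 2, Pmvk and Ggps1, lower in both.

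The comparison of PA + PS2 with PA asks what the polymer added to the amphiphile scaffold. It shares the PA + PS2 libraries with the comparison above. Again 0 of 34 members passed in edgeR, with or without the repeat block, against 0% and 1.52% of all genes. At an unadjusted p under 0.05, edgeR had Mvd higher and Abca1 and Srebf1 lower, 3 of 34 against 7.7% of all genes. Abca1 differed by -1.51 ± 0.39 log2 (-0.74 in repeat 1 and -2.07 in repeat 2), or 0.350 times PA, with an adjusted p of 0.43 in edgeR, 0.0828 with the repeat block, 0.00107 in DESeq2 and 4.75e-05 in DESeq2 with the block. DESeq2 called 1.27% of genes here. Its call of Abca1 was lost without PA repeat 2 (log2 -0.85), PA + PS2 repeat 1 (-1.62) or PA + PS2 repeat 2 (-1.41). It was kept without PA repeat 1 (-1.96), and each of these fits leaves 1 library in a group. Srebf1 differed by -0.65 ± 0.19 log2 (-0.29 in repeat 1 and -0.94 in repeat 2), with an edgeR adjusted p of 0.455 and 0.0629 with the repeat block; DESeq2 with the block, which called 2.35% of genes, called it lower (0.0324), and DESeq2 without it did not (0.103). Without PA repeat 2 the difference of Srebf1 was -0.30 log2 in edgeR and in DESeq2 and -0.34 in edgeR with the block. With the block in edgeR it was -0.40 without PA + PS2 repeat 2, -0.88 without PA repeat 1 and -0.84 without PA + PS2 repeat 1. The difference of Abca1 with the block in edgeR ran from -0.89 without PA + PS2 repeat 2 to -1.96 without PA + PS2 repeat 1.

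Mvd was 0.27 ± 0.11 log2 above PA (edgeR adjusted p = 0.617) and Pmvk was at -0.16 ± 0.07 (0.686 in edgeR). Fdps, which makes farnesyl diphosphate, was at 17.5 and 18.3 CPM (control), 19.4 and 15.9 CPM (PA) and 21.7 and 20.3 CPM (PA + PS2). Its difference from PA was 0.25 ± 0.14 log2 (edgeR adjusted p = 0.789), on counts that its near copies make uncertain. Without overlap, 7 members were higher than PA (20.6%, against 16.7% of all genes) and 6 lower (17.6%, against 18.4%), so these shares lay near the background. Hmgcs1 and Sqle differed from PA by 0.02 and 0.07 log2, Srebf2 by 0.08 and Insig1 by 0.08.

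The comparison of PA with control asks what the amphiphile did without the polymer; it shares the control libraries with the first comparison and the PA libraries with the second. In edgeR 0 of 34 members and 0% of all genes passed, and at an unadjusted p under 0.05 the members again gave 0, against 0.595% of all genes. DESeq2 called 0 members too. The smallest p-values belonged to Mvk (0.19 ± 0.11 log2), Nr1h3, Stard4 (0.12 ± 0.08), Sc5d (0.11 ± 0.09), Insig1 (0.09 ± 0.07) and Ebp (0.19 ± 0.18), all with an edgeR adjusted p of 1.00. Stard4 was at 114 and 122 CPM (control), 131 and 126 CPM (PA) and 126 and 116 CPM (PA + PS2), and PA lay above control in both repeats. Sc5d, a sterol desaturase, was at 137 and 134 CPM (control), 154 and 138 CPM (PA) and 157 and 138 CPM (PA + PS2), also higher in PA in both repeats. The repeats of most other members pointed opposite ways: Mvk differed by 0.38 in repeat 1 and -0.01 in repeat 2, and Ebp by 0.38 in repeat 1 and -0.03 in repeat 2. Without overlap, 6 members were higher (17.6%, against 12.1% of all genes) and 2 lower (5.88%, against 9.69%).

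**Figure D4:**
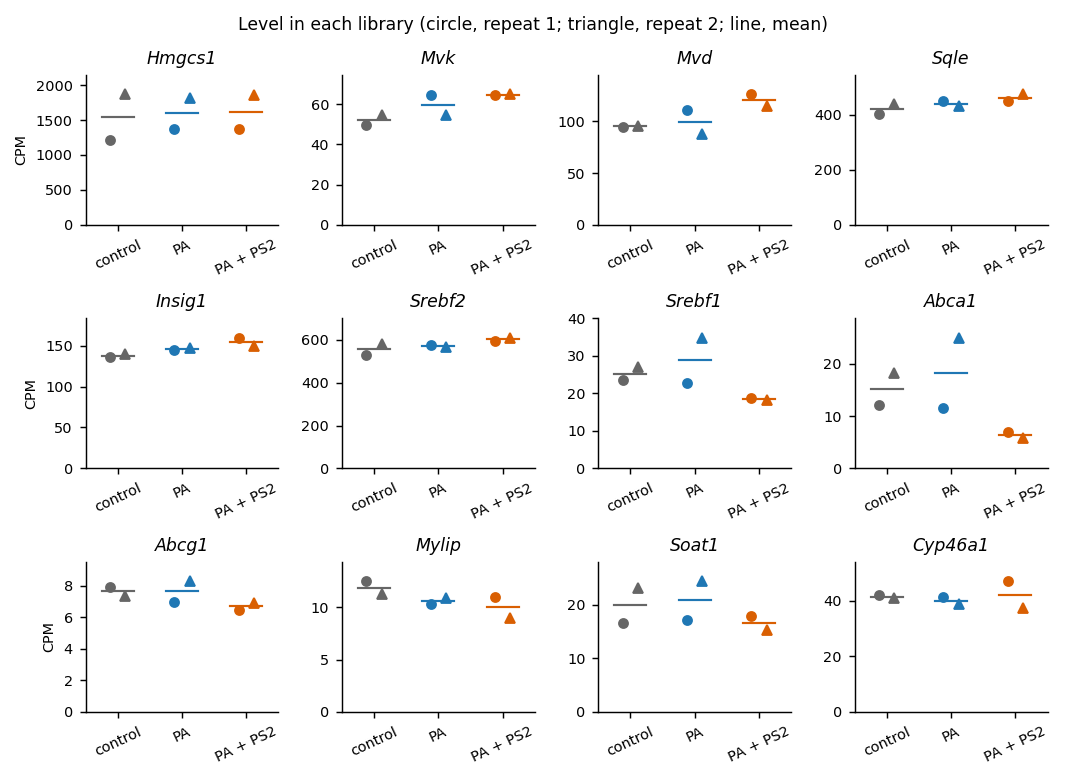
CPM of 12 members in each of the 6 libraries, with control, PA and PA + PS2 side by side and separate markers for repeats 1 and 2; each panel has its own axis. In Mvd and Insig1 the PA + PS2 libraries are highest, in Abca1 and Srebf1 lowest, and in Hmgcs1 the repeats differ more than the groups.

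Synthesis genes and efflux genes were then set against each other within each repeat. In PA + PS2 against control, the median log2 difference of the 19 synthesis genes was 0.12 (0.19 in repeat 1 and 0.05 in repeat 2). That of the 3 efflux genes was -0.25 (-0.29 and -0.33), and that of all 17299 genes was 0.01. The efflux median is the value of 1 gene, here Mylip in the fit and in repeat 2 and Abcg1 in repeat 1. Abca1, at -0.80 and -1.62, did not set it. In PA against control, the synthesis median was 0.07 (0.16 and -0.02) and the efflux median -0.003 (-0.18 and 0.17), so both lists changed sign between the repeats. In PA + PS2 against PA, the synthesis median was 0.05 (0.005 and 0.07) and the efflux median -0.19 (-0.11 and -0.28). The number of synthesis genes above 0 was 17 of 19 in repeat 1 and 6 of 19 in repeat 2 for PA against control. Of all genes, 51.9% and 52.1% were above 0 there. For PA + PS2 against control it stood at 16 and 14 of 19, against 50.2% and 51.5% of all genes.

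Summed over the 19 synthesis genes, the level was 3805 and 4564 CPM (control), 4240.2 and 4478 CPM (PA) and 4276 and 4656 CPM (PA + PS2). The sum of each group was higher in repeat 2 than in repeat 1, but the median gene rose only in control. This median was taken over the 19 genes, with the log2 level of each gene centred on its own mean. Between repeats 1 and 2 it fell from 0.090 to -0.048 for PA. For PA + PS2 the fall was from 0.109 to 0.033, whereas control rose from -0.089 to -0.037. Hmgcs1 alone made up 31.8% to 41.0% of the sum, with the lower shares in repeat 1. Summed over the 3 efflux genes, the level was 32.5 and 36.97 CPM (control), 28.9 and 44.2 CPM (PA) and 24.4 and 21.8 CPM (PA + PS2). Here PA + PS2 was lowest in both repeats and PA repeat 2 highest, and Abca1 carried most of the range.

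**Figure D5:**
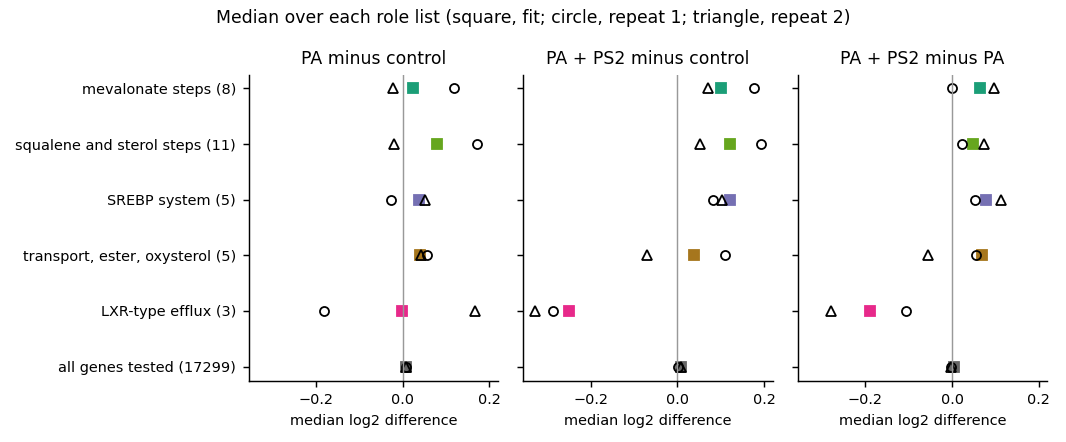
Median log2 difference of each role list (its number of genes in brackets, with the synthesis genes drawn as their 8 mevalonate and 11 sterol genes) and of all genes tested in the 3 comparisons, from the fit (square) and within repeats 1 (circle) and 2 (triangle). The efflux median lies below 0 in both repeats for PA + PS2 against control (-0.29 and -0.33), while for PA against control it changes sign (-0.18 and 0.17). This median is the value of Abcg1 or Mylip and in no comparison that of Abca1.

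The repeat number itself separated 3 members. Hmgcs1 was at 1209.9 and 1870.3 CPM (control), 1376 and 1821 CPM (PA) and 1378 and 1856 CPM (PA + PS2). Repeat 2 was higher in each group, 1.40 times repeat 1 (log2 0.49 ± 0.06; edgeR adjusted p = 0.00077). Acat2 was at 218 and 182 CPM (control), 232 and 174 CPM (PA) and 244 and 194 CPM (PA + PS2). Here repeat 2 was lower in each group (log2 -0.34 ± 0.06; edgeR adjusted p = 0.00514), and Acat2 shares most of its transcript with Acat3. Tm7sf2, a sterol reductase, was lower in repeat 2 by -0.32 ± 0.08 log2 (edgeR adjusted p = 0.0343). These are 3 of 34 members (8.82%), against 4.9% of all genes, in a comparison added after the values had been seen. Hmgcs1 and Acat2, which catalyse consecutive steps, thus differed between repeats in opposite directions. Among groups, Hmgcs1 differed by 0.07 ± 0.27 log2 for PA + PS2 against control (edgeR adjusted p = 0.999) in the fit without the repeat block. With the block, which takes out the difference between repeats, it was 0.09 ± 0.07 (edgeR adjusted p = 0.757).

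Of 63 neighbouring genes of sterol and SREBP biology, 60 passed the filter, and 0 of them passed in edgeR without the block in any comparison. With the repeat block 1 of 60 passed, Clu, lower on PA + PS2 than on PA, against 1.52% of all genes. Clu, a lipoprotein component also called apolipoprotein J, was at 27.7 and 35.6 CPM (control), 31.6 and 33.7 CPM (PA) and 20.7 and 23.2 CPM (PA + PS2). PA + PS2 was lowest without overlap, at -0.58 ± 0.14 log2 from PA (edgeR adjusted p = 0.368, and 0.0219 with the block) and -0.53 ± 0.14 from control (0.508 in edgeR, and 0.0521 with the block). The call against PA was lost without PA + PS2 repeat 2 (log2 -0.55, edgeR adjusted p = 0.190 with the block). Lrp2, a lipoprotein receptor, was at 16.2 and 25.9 CPM (control), 23.5 and 15.9 CPM (PA) and 11.95 and 6.85 CPM (PA + PS2). It was also lowest on PA + PS2, at -1.16 ± 0.36 log2 from control (edgeR adjusted p = 0.623) and -1.07 ± 0.36 from PA (0.54 in edgeR). DESeq2 called Lrp2 lower in both comparisons (0.0178 and 0.0316), but not with the repeat block. Against control this call was lost without control repeat 2 (log2 -0.78) or PA + PS2 repeat 2 (-0.82), with DESeq2's adjusted p at 1.00 in both, and the difference was -0.43 in repeat 1 and -1.91 in repeat 2. Against PA it was lost without PA repeat 1 (-0.76, 0.702 in DESeq2), PA repeat 2 (-1.32, 0.0968) or PA + PS2 repeat 2 (-0.72, 0.892).

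Of 10 fatty acid genes known as SREBP targets, 8 were above 0 in PA + PS2 against control, with a median log2 difference of 0.09, and 8 in PA against control, where 51.9% and 52.3% of all genes were; 6 were above 0 in PA + PS2 against PA, against 51.1%. Scd2 and Fads2, desaturases, were 0.22 ± 0.10 and 0.18 ± 0.08 log2 above control on PA + PS2, and Scd1, also a desaturase, was at -0.18 ± 0.17 (edgeR adjusted p = 0.741, 0.719 and 0.955). From PA, Scd1 differed by -0.47 ± 0.17 log2 (edgeR adjusted p = 0.565). Ufd1, which helps to extract ubiquitinated proteins from the endoplasmic reticulum, was 0.33 ± 0.12 log2 above control. Of the sterol-binding Osbp family, Osbpl5 was 0.33 ± 0.11 and Osbpl6 0.18 ± 0.09 log2 above PA, and Sort1, a sorting receptor, was at -0.12 ± 0.07 from control. Between PA and control, Pggt1b, Dhdds and Scd2 had the smallest p-values among higher genes (log2 0.27, 0.15 and 0.16) and Rabggta, Osbpl5 and Mbtps1 among lower ones (-0.13, -0.11 and -0.05). Without overlap, 19 of the 60 neighbours (31.7%) were above control on PA + PS2, against 16.6% of all genes, and 5 (8.33%) below, against 17.1%.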

How the data were processed

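RNA from 6 libraries (3 groups of 2) was measured by sequencing, and whole-number read counts per Ensembl gene were deposited by the authors as 1 table a library. Per the submitters' processing notes, the build was mm10 and the tools included HTSeq 2.0.2, STAR 2.7.5, cutadapt 4.2 and DESeq2 1.14.1; the molecule label reads polyA RNA, and the kit named in the labels is for total RNA. Symbols and exon lengths came from GENCODE M21. Groups were compared with edgeR 4.0.16 (TMM, filterByExpr, robust quasi-likelihood, 3 groups sharing 1 spread) in R 4.3.3, with DESeq2 1.42.0 and limma-voom 3.58.1 as alternatives. The spread (biological coefficient of variation) came to 16.7%, or 9.57% under a repeat block. Fits by edgeR with and without the block, DESeq2 without it and limma-voom were tested on simulated data. The simulation held no repeat effect and less spread than 16.7%, and DESeq2 with the block was not simulated. Same-numbered libraries deviated together, with correlations over 17299 genes of 0.35, 0.36 and 0.21. The titles' repeat numbers were therefore taken as pairs for the repeat block and the within-repeat differences, although library names number the second libraries differently. The main edgeR fit, with its p-values and standard errors, did not use this pairing. The members and lists were chosen with earlier results of these data known. Values are printed for members with the 6 smallest p-values in a comparison, for any past the threshold and for 11 fixed members; neighbours were named when past the threshold or among the 3 smallest p-values in a direction at 5 CPM or more. Near copies were sought by aligning transcripts.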

Additional observations from a re-analysis of the deposited data

How the results depend on the processing

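Every member's log2 difference was recomputed under 28 other settings, of which the 6 that left out a library under DESeq2 were chosen after seeing the data. Of 2851 such values, 2579 stayed the same in direction and side of the threshold, 38 passed the threshold where edgeR without the block had not, and 234 that passed in neither changed sign; 0 called values reversed. RLE factors, library totals, a filter of 50 counts in 2 libraries, limma-voom and edgeR on only the 2 groups compared kept 0 genes and 0 members called. For all genes, the number called in PA vs control, PA_PS2 vs control and PA_PS2 vs PA was 2, 425 and 501 without a filter, 2, 705 and 131 with the replicate block and only the 2 groups compared, and for the last 2 of these comparisons 121 and 263 with the replicate block, 138 and 197 in DESeq2, and 268 and 350 in DESeq2 with the block.

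Members called numbered 2 (Mvd and Abca1) and 2 (Abca1 and Srebf1) in the same 2 comparisons without a filter, 1 and 1 (Abca1) in DESeq2, 1 and 2 in DESeq2 with the block, and 4 (Mvk, Mvd, Srebf1 and Abca1) for PA_PS2 vs control with the block on only the 2 groups. With no library left out, the block changed no other member's call. Leaving out each library in turn under edgeR, edgeR with the block and DESeq2, the genes called ranged from 0 to 35 for PA vs control, 0 to 942 for PA_PS2 vs control and 0 to 1021 for PA_PS2 vs PA, and the members called from 0 to 4 and 0 to 3 in the last 2. The lone library of an arm was then assumed to vary like the other groups. Over the same fits the synthesis median ranged from -0.0054 to 0.15, 0.051 to 0.19 and -0.030 to 0.13, and the efflux median from -0.27 to 0.13, -0.41 to -0.18 and -0.31 to -0.052. The causes were not tested. At 0.06 to 0.51 CPM, Nr1h3 is limited by depth.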
